A study of Homo sapiens with 8 samples.

Results

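Genes of fatty acid oxidation and ketogenesis were followed in 2 established human liver cancer cell lines, Huh7 and Hep-3B, after knockdown of KLHL23, a Kelch-like protein. The set holds 41 listed genes that share this function, listed with earlier results of these arrays known. A gene was counted as measured when the platform annotation paired at least 1 probe set, the group of short probes that reads a transcript, with that gene alone, and the brightest such probe set stood for it. This gave 39 of the 41 genes, among 19775 genes in all; ACSL3 and CPT1B are not analysed here.

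The 8 Affymetrix arrays form 4 groups of 2: Huh7 shKLHL23, Huh7 shLuc, Hep-3B shKLHL23 and Hep-3B shLuc. Cells grown with 10% serum received, at a multiplicity of infection of 2 and for 48 h, lentivirus that carried a short hairpin RNA against KLHL23 or, in the controls, against luciferase, which human cells lack, and all groups were selected with puromycin. The labels give 1 name for the knockdown hairpin, so loss of KLHL23 and any effect of that hairpin on other transcripts cannot be told apart. Arrays are numbered 1 and 3 within each group, with no word on whether the numbers stand for separate cultures. The spread behind each p-value is therefore that between these arrays and may be technical.

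Fatty acids enter cells through carriers such as CD36, are bound in the cytosol by FABP1 and are joined to coenzyme A by acyl-CoA synthetases. The carnitine shuttle, with CPT1A as its gatekeeper on the outer mitochondrial membrane, carries long-chain acyl groups into mitochondria. There acyl-CoA dehydrogenases, the trifunctional protein and thiolases shorten them in repeated rounds. Peroxisomes shorten very long and branched chains. In liver the acetyl-CoA formed is turned into ketone bodies during fasting, a programme that the nuclear receptor PPARA, its coactivator PPARGC1A and the membrane-bound transcription factor CREB3L3 promote.

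Stretches of DNA before a RefSeq start site of 4 of these genes are shown because their transcripts were called after knockdown. CPT1A and CREB3L3 rose in Huh7, ACSL5 fell in Huh7, and FABP1 rose in Hep-3B. Each is the 250 bases upstream of such a start site in GRCh38.p14, written 5′ to 3′ on the strand of the gene. The windows of CPT1A, CREB3L3 and FABP1 lie just before the gene. That of ACSL5 lies inside the gene, which spans chr10:112374116-112428376, before a start site further in. The windows are chr11:68844278-68844527 (minus strand) for CPT1A, chr19:4153381-4153630 (plus strand) for CREB3L3, chr10:112375018-112375267 (plus strand, the window with a match among the 2 of this gene) for ACSL5 and chr2:88128063-88128312 (minus strand) for FABP1. Capitals mark matches on either strand to the hexamer AGGTCA, which many nuclear receptors bind, to the spaced pair AGGNCANAGGNCA, which contains that hexamer in some of its forms and is the arrangement PPARA is known to bind with its partner RXR, or to the letters TATAAA.
CPT1A: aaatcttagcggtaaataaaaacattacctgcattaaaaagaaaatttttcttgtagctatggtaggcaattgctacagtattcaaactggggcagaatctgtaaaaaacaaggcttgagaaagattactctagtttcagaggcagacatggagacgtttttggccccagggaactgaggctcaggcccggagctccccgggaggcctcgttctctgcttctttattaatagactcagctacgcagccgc
CREB3L3: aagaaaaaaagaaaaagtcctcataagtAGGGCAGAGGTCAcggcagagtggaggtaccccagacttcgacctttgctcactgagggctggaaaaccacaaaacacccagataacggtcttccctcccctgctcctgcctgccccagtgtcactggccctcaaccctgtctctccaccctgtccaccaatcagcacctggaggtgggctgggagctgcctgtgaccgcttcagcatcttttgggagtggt
FABP1: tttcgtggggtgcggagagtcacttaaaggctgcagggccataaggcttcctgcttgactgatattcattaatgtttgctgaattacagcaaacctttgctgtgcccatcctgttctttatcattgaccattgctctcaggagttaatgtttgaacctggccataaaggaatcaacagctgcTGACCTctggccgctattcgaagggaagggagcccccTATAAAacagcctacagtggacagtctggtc
ACSL5: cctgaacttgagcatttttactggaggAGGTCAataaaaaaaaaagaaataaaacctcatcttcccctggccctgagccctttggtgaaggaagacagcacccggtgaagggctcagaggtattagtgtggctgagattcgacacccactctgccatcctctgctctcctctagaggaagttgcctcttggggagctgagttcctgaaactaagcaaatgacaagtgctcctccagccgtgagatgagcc

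CREB3L3 held the spaced pair, 222 to 210 bases before its start, and that match includes a copy of the hexamer. The pair occurred in 0.268% of all 35116 RefSeq windows of that length and in 1 of the 48 windows of the 31 measured genes found in the table. The hexamer occurred in 12.1% of all windows and in 3 of the 48 windows of these genes, those of ACSL5, CREB3L3 and FABP1. In FABP1 it lay 68 to 63 bases before the start. TATAAA occurred in 10.7% of all windows and in 4 of the 48, which belong to FABP1, ACADVL and CD36. These are matches of letters only, and the CPT1A window held none of them.

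Levels below are log2 values made by RMA, a method that corrects background, equalises the arrays and gives 1 value per probe set, so a difference of 1 is a doubling. Levels of different genes are compared only for the cell type markers below, and only roughly, because probe sets differ in brightness. Differences were tested with limma, a linear model that shares information on spread across genes. Calls required an adjusted p under 0.05, with the adjustment made over all 19775 genes. KLHL23 stood at 5.78 and 5.88 in Huh7 knockdown arrays, against 7.89 and 7.87 in Huh7 control arrays (limma adjusted p = 0.00363). It stood at 7.21 and 6.15 in Hep-3B knockdown arrays, against 7.81 and 7.84 in Hep-3B control arrays, a difference that was not called (limma adjusted p = 0.0833). The 10 measured hepatocyte markers averaged 11.7 to 12.1 over the arrays, whereas the 6 endothelial markers averaged 3.64 to 4.01, the 6 stellate cell and fibroblast markers 4.21 to 4.54, the 6 blood and macrophage markers 5.39 to 5.86 and the 6 cholangiocyte markers 7.15 to 7.82. Within the endothelial list PECAM1 lay highest, at 5.25 to 7.18. Within the blood list PTPRC, the pan-leukocyte marker, lay near the floor at 2.33 to 2.63, while LYZ lay at 11.06 to 12.38. Markers also moved with the knockdown, and their part in the results was not tested. In Huh7 the cholangiocyte markers KRT19 and EPCAM rose by 1.32 and 0.36 and SOX9 fell by 0.56 (limma adjusted p = 0.00212, 0.0293 and 0.0208), and the hepatocyte marker TTR rose by 1.23 (limma adjusted p = 0.00524). The summed linear level of the cholangiocyte markers was 4289 to 4950 in Huh7 knockdown arrays, against 4718 to 4737 in Huh7 control arrays, and overlapped. In Hep-3B TTR rose by 1.58 (limma adjusted p = 0.0148) and no cholangiocyte marker was called (0 by limma, 1 at an unadjusted p under 0.05). In such bulk RNA, fewer cells of a type and less RNA per cell cannot be told apart. RNA integrity was read from the 3′ minus 5′ difference of the ACTB control probe sets, at 0.525 and 0.546 in Huh7 knockdown arrays, against 0.873 and 0.833 in Huh7 control arrays. In Hep-3B it was 0.737 and 0.753 in knockdown arrays, against 0.442 and 0.537 in control arrays. The same measure for GAPDH overlapped in Huh7, at 0.148 and 0.112 in knockdown arrays, against 0.132 and 0.0887 in control arrays, and was higher in Hep-3B knockdown arrays, at 0.223 and 0.236, against 0.117 and 0.12 in control arrays. The part of RNA integrity in the results that follow was not tested.

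In Huh7 the knockdown raised the gatekeeper of mitochondrial entry and lowered 3 long-chain acyl-CoA synthetases. Of the 39 genes 6 rose (CPT1A, CREB3L3, BDH1, CRAT, CPT2 and ACAA2) and 3 fell (ACSL5, ACSL1 and ACSL4), while 30 were not called. The 9 called genes are 23.1% of the set, against 13.5% of all genes called in this comparison, with 5.75% higher and 7.73% lower. The median difference of the set was 0.03, against -0.00 over all genes. Members differed between -0.86 and 2.88, and 33 of the 39 lay within 0.58 of control.

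CPT1A, the carnitine palmitoyltransferase that limits the rate of fatty acid entry into mitochondria, stood at 8.25 and 8.32 in Huh7 knockdown arrays, against 5.40 and 5.40 in Huh7 control arrays. Both knockdown arrays were far above both controls and close to each other. This was a 7.38-fold rise, or 2.88 on the log2 scale (SE 0.11, n = 2 for each group, limma adjusted p = 2.4e-05). Of its 4 probe sets, tested over all probe sets, 3 rose in Huh7, by 2.88, 2.53 and 1.44 (limma adjusted p at most 0.00169). The dimmest lay at 3.59 and 3.70 in knockdown arrays, against 3.36 and 3.23 in control arrays, and was not called (limma adjusted p = 0.101).

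**Figure D1:**
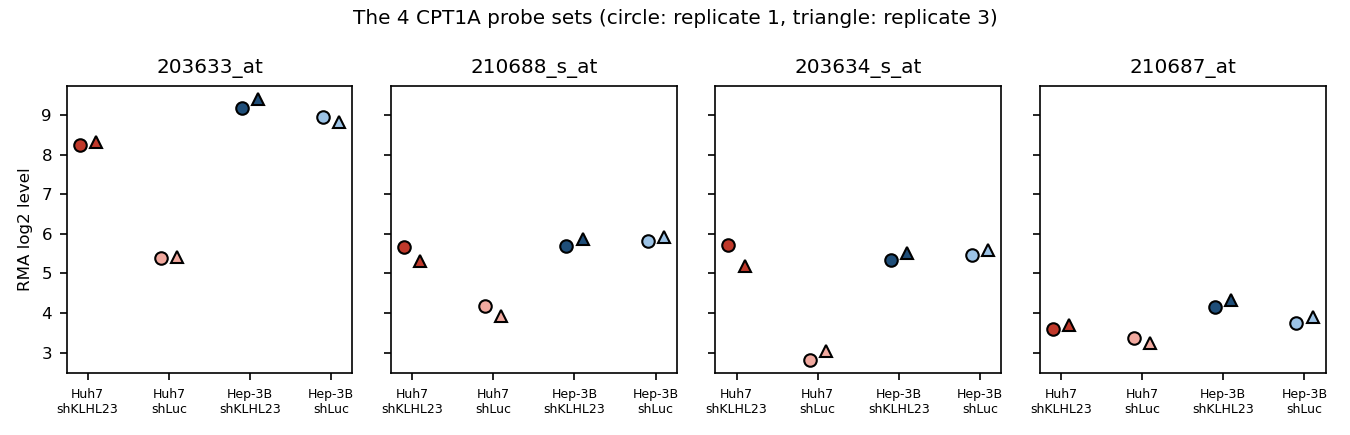
RMA log2 level of each of the 4 CPT1A probe sets on the 8 arrays, with circles for replicate 1 and triangles for replicate 3, ordered from the brightest probe set to the dimmest. In 3 probe sets both Huh7 shKLHL23 arrays stand well above both Huh7 shLuc arrays, and in the brightest they read 8.25 and 8.32, against 5.40 and 5.40.

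The rest of the carnitine shuttle moved little. CPT2, which releases the acyl group inside mitochondria, read 7.76 and 7.73 in Huh7 knockdown arrays, against 7.37 and 7.42 in controls, and rose by 0.35 (SE 0.09, limma adjusted p = 0.041). CRAT, the acetyltransferase for short chains, read 7.78 and 7.53 in knockdown arrays, against 7.15 and 7.29 in controls, and rose by 0.44 (SE 0.11, limma adjusted p = 0.0345). The arrays of these genes did not overlap between groups, but both calls sit near the threshold: with the replicate number as a block neither passed (limma adjusted p = 0.0789 for CPT2 and 0.0566 for CRAT). The mitochondrial carnitine carrier SLC25A20 differed by -0.03 and the peroxisomal octanoyltransferase CROT by 0.38, and neither was called. A dim CROT probe set went the other way, at 2.54 and 2.52 in Huh7 knockdown arrays, against 3.03 and 3.33 in controls. It was called lower in the test over all probe sets (-0.64, limma adjusted p = 0.0207).

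Among regulators and signals, CREB3L3 was the only called gene of 5. It stood at 6.25 and 5.68 in Huh7 knockdown arrays, against 4.41 and 4.82 in Huh7 control arrays, a rise of 1.35 (SE 0.20, limma adjusted p = 0.00487) or 2.55-fold. The knockdown arrays differed from each other by 0.57 but both were above the controls. In Hep-3B it stood at 5.25 and 5.46 in knockdown arrays, against 5.24 and 5.28 in controls. PPARA differed by 0.16 (limma adjusted p = 0.388) and PPARGC1A by -0.28 (limma adjusted p = 0.331). Of the 9 probe sets of PPARA, tested over all probe sets, 1 was called higher in Huh7, by 0.42 (limma adjusted p = 0.0456). It read 6.46 and 6.46 in knockdown arrays, against 5.97 and 6.13 in controls. The hormone gene FGF21 and PDK4, which restrains glucose oxidation, were dim on every array, below the array medians of 4.563 to 4.597, as was the dehydrogenase ACADL. RMA shrinks differences of such probe sets, and their differences of -0.03, 0.11 and -0.27 in Huh7 were not called.

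The acyl-CoA synthetases of the ACSL family activate long-chain fatty acids. ACSL5 stood at 8.11 and 8.27 in Huh7 knockdown arrays, against 9.04 and 9.05 in Huh7 control arrays, and fell by 0.86 (SE 0.10, limma adjusted p = 0.00229), to 0.552 of control. ACSL1, the main form of hepatocytes, stood at 9.77 and 9.34, against 10.42 and 10.28 in controls, and fell by 0.80 (SE 0.14, limma adjusted p = 0.0106). ACSL4, which prefers arachidonic acid, stood at 8.78 and 9.23, against 9.63 and 9.54 in controls, and fell by 0.58 (SE 0.14, limma adjusted p = 0.0307). All 3 were thus lower in both Huh7 knockdown arrays than in either control array. ACSL6, a relative outside the set, read 4.75 and 4.68 in Huh7 knockdown arrays, against 4.65 and 4.59 in controls, and was not called (0.09, limma adjusted p = 0.589). In Hep-3B no ACSL gene was called: ACSL5 read 9.55 and 9.39 in knockdown arrays, against 9.75 and 9.67 in controls, ACSL1 read 10.50 and 10.33, against 10.41 and 10.50, and ACSL4 read 9.41 and 9.57, against 9.13 and 9.14. Over all probe sets, 2 of 2 fell for ACSL1, 2 of 2 for ACSL5 and 1 of 3 for ACSL4. ACSL4 was at -0.36 without Huh7 knockdown replicate 1 and at -0.40 with its _s_at probe sets left out, and was not called in either case (limma adjusted p = 0.098 and 0.278).

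The other uptake and activation genes were not called in Huh7. The transporters SLC27A2 and SLC27A5, which also act as acyl-CoA synthetases, differed by -0.23 and -0.21, and FABP1 by 0.37 (limma adjusted p = 0.201). The dimmer of the FABP1 probe sets was called higher in Huh7 in the test over all probe sets, by 0.56 (limma adjusted p = 0.0279). The medium-chain synthetase genes ACSM2A, ACSM3 and ACSM5 differed by 0.73, 0.14 and 0.12, of which ACSM2A, at 8.23 and 8.46 in knockdown arrays against 7.60 and 7.64 in control arrays, was the furthest from 0 among genes not called (limma adjusted p = 0.133).

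Of the 14 genes of the mitochondrial spiral and its electron transfer only ACAA2, the last thiolase of medium chains, was called, with a rise of 0.31 (SE 0.09, limma adjusted p = 0.0469) and arrays of 9.91 and 9.97, against 9.59 and 9.66 in controls. The call was lost under 14 of 17 alternatives, among them the mean of its 3 probe sets (0.14, limma adjusted p = 0.314) and the replicate number as a block (limma adjusted p = 0.0988). The other 13 differed by between -0.27 and 0.15. Among them the trifunctional protein subunits HADHA and HADHB differed by -0.08 and 0.08, the dehydrogenases ACADM and ACADVL by 0.03 and -0.05, and the electron transfer flavoprotein subunits ETFA and ETFB by -0.01 and 0.09. None of the 4 peroxisomal genes (ACOX2, EHHADH, ACAA1 and HSD17B4) was called, with differences between -0.01 and 0.18 (0 called by limma after adjustment, and 0 at an unadjusted p under 0.05).

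BDH1, which interconverts the ketone bodies acetoacetate and beta-hydroxybutyrate, stood at 5.85 and 5.70 in Huh7 knockdown arrays, against 5.12 and 4.87 in Huh7 control arrays, and rose by 0.78 (SE 0.19, limma adjusted p = 0.0309). The groups did not overlap. The other probe set of BDH1, at a mean of 3.68, differed by 0.19 and was not called, and with the mean of both the gene was at 0.48 (limma adjusted p = 0.0743).

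Calls in Huh7 rest on few arrays. The count of called genes in the set was 3 without either Huh7 control array, 4 without Huh7 knockdown replicate 1 or either Hep-3B control array, and 8 or 9 without any of the other arrays. CPT1A, CREB3L3 and ACSL5 were called in Huh7 under every alternative that was run for them, at limma adjusted p of at most 0.0014, 0.0453 and 0.0287.

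**Figure D2:**
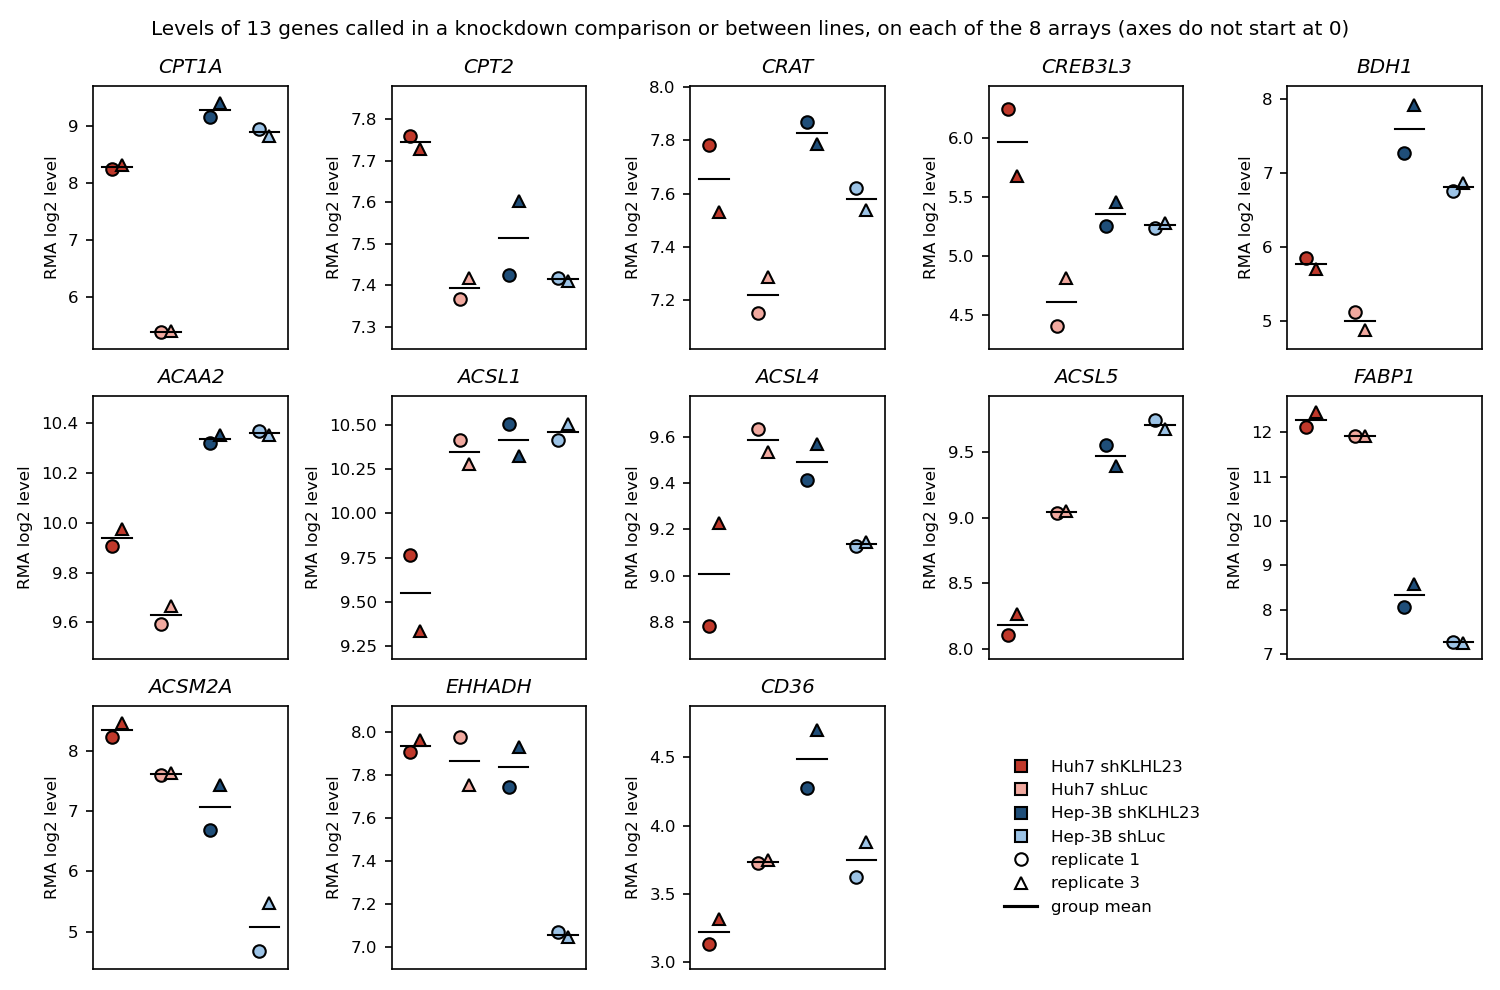
RMA log2 level of 13 genes on each of the 8 arrays, with circles for replicate 1, triangles for replicate 3 and a line at the group mean; the vertical axes differ between genes and do not start at 0. ACSL1, ACSL4 and ACSL5 are lower in the Huh7 shKLHL23 arrays than in the Huh7 shLuc arrays, and FABP1, ACSM2A and EHHADH are higher in the Hep-3B shKLHL23 arrays than in the Hep-3B shLuc arrays.

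In Hep-3B the knockdown raised the fatty acid carrier FABP1, the medium-chain synthetase ACSM2A and the peroxisomal enzyme EHHADH, and most other genes of the set stood slightly higher. These 3 genes rose, 0 fell and 36 were not called. They are 7.69% of the set, against 0.693% of all genes called in this comparison, with 0.536% higher and 0.157% lower. The median difference of the set was 0.23, against 0.02 over all genes, and 33 of the 39 differences were above 0. In 29 of 39 genes (74.4%) both knockdown arrays lay above both control arrays, against 29.4% of all genes, and in 4 (10.3%) both lay below, against 23.5%. In Huh7 the same counts were 14 (35.9%, against 26.5% of all genes) above and 9 (23.1%, against 27.2%) below. The Hep-3B pattern was not particular to the set, as fatty acid synthesis genes shared it. Of 15 measured fatty acid synthesis genes 11 lay above in this way in Hep-3B and 1 below, with a median of 0.19. It was less clear in hepatocyte markers, of which 7 of 10 lay above and 3 below (median 0.14). Of 22 citric acid cycle and pyruvate entry genes 7 lay above and 4 below (median 0.07). These last shares are near the 29.4% and 23.5% of all genes.

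ACSM2A stood at 6.69 and 7.44 in Hep-3B knockdown arrays, against 4.67 and 5.47 in Hep-3B control arrays, a difference of 1.99 (SE 0.28, n = 2 per group, limma adjusted p = 0.0272) or 3.97-fold. Replicates within each group differed by 0.75 and 0.80, yet the groups did not overlap. Its other probe set, at 2.34 to 3.38 over the arrays, differed by 0.13 (limma adjusted p = 0.761 over all probe sets), and with the mean of both the gene was at 1.06 and not called (limma adjusted p = 0.0503). ACSM2A has a near-identical neighbour, ACSM2B, so reads of the 2 genes are uncertain; the probe set paired with ACSM2B alone stood at 4.46 and 4.85 in knockdown arrays, against 4.24 and 3.88 in control arrays (0.60, limma adjusted p = 0.109).

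FABP1, the abundant fatty acid-binding protein of the hepatocyte cytosol, stood at 8.07 and 8.58 in Hep-3B knockdown arrays, against 7.28 and 7.25 in Hep-3B control arrays. It rose by 1.06 (SE 0.17, limma adjusted p = 0.0396), or 2.08-fold, and both of its probe sets rose in the test over all probe sets. EHHADH, the bifunctional enzyme of peroxisomal oxidation, stood at 7.74 and 7.93, against 7.07 and 7.04 in controls, and rose by 0.78 (SE 0.11, limma adjusted p = 0.0261), or 1.72-fold. In both genes the knockdown arrays lay above the controls, which were close to each other. In Huh7 FABP1 read 12.12 and 12.46 in knockdown arrays, against 11.93 and 11.91 in controls, and EHHADH read 7.91 and 7.97, against 7.98 and 7.76, so that only EHHADH overlapped.

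Genes furthest from 0 without a call in Hep-3B were BDH1, CROT and CD36. BDH1 stood at 7.27 and 7.92 in knockdown arrays, against 6.76 and 6.87 in control arrays, a difference of 0.78 (limma adjusted p = 0.0887) that was 0.46 without knockdown replicate 3. CROT stood at 7.61 and 7.97, against 7.02 and 7.04 in controls, a difference of 0.76 (limma adjusted p = 0.0676). CPT1A, the gene with the widest difference in Huh7, stood at 9.17 and 9.41 in Hep-3B knockdown arrays, against 8.95 and 8.83 in controls, a difference of 0.39 (limma adjusted p = 0.108). In the test over all probe sets none of its 4 was called in Hep-3B. Those that differed by 2.53 and 1.44 in Huh7 differed by -0.10 and -0.09 in Hep-3B.

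By role, the Hep-3B differences were small in the mitochondrial spiral, with a median of 0.14 and a range of -0.16 to 0.40, and larger in the peroxisomal genes, at 0.29 for ACOX2, 0.32 for HSD17B4, 0.37 for ACAA1 and 0.78 for EHHADH. All 4 peroxisomal genes were higher in both knockdown arrays than in either control array, although only EHHADH was called. The 5 carnitine shuttle genes differed by 0.10 to 0.76. The regulators had no called member, with PPARA at 0.37 (limma adjusted p = 0.124) and PPARGC1A, at 5.27 and 4.96 in knockdown arrays against 5.77 and 5.71 in control arrays, at -0.63 (limma adjusted p = 0.103). PPARGC1A was the furthest below control of the 6 genes with a difference under 0.

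The 3 calls in Hep-3B depend on the arrays included. None of them passed in a fit that left out any array other than Hep-3B knockdown replicate 1 (0 called by limma; adjusted p between 0.0514 and 0.245), whereas 8 genes passed, all higher, without that array. Knockdown replicate 3 lay above replicate 1 in 29 of the 39 genes, but the median difference of the set from the control mean was alike in replicates 1 and 3, at 0.22 and 0.24.

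**Figure D3:**
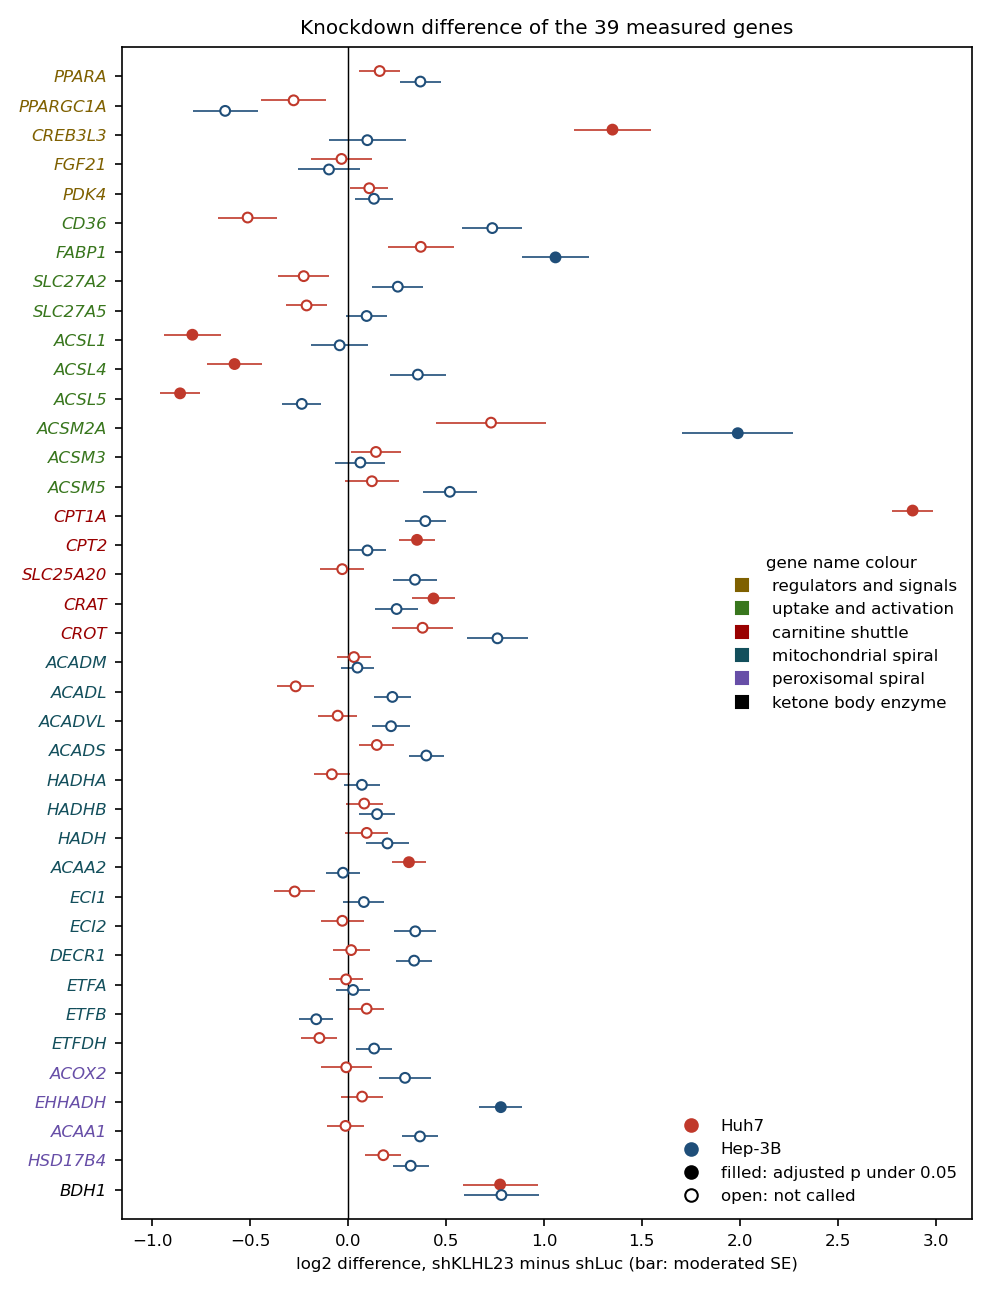
Log2 difference of each of the 39 measured genes, shKLHL23 minus shLuc, in Huh7 and Hep-3B, with bars for the moderated standard error, filled points for an adjusted p under 0.05 and gene names coloured by role. CPT1A in Huh7 stands apart at 2.88 and ACSM2A in Hep-3B at 1.99, and the ACSL genes lie to the left in Huh7.

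Whether the knockdown acted differently in the lines was tested by subtracting the Hep-3B difference from the Huh7 one. CPT1A differed between the lines by 2.49 (SE 0.15, limma adjusted p = 0.00155), with differences of 2.88 in Huh7 and 0.39 in Hep-3B. CD36 differed by -1.25 (SE 0.22, limma adjusted p = 0.0408), with differences of -0.51 in Huh7 and 0.74 in Hep-3B, neither of which was called. The 2 genes are 5.13% of the set, against 1.26% of all genes called in this comparison. CD36 read 3.13 and 3.32 in Huh7 knockdown arrays, against 3.72 and 3.75 in Huh7 control arrays, and 4.28 and 4.70 in Hep-3B knockdown arrays, against 3.62 and 3.88 in Hep-3B control arrays. All but 1 of these values lie below the array medians, none of its other 4 probe sets was called, and with the _s_at and _x_at probe sets left out its difference between the lines was 0.12 (limma adjusted p = 0.858). It was also not called without either Huh7 control array, either Hep-3B control array, Huh7 knockdown replicate 1 or Hep-3B knockdown replicate 3 (limma adjusted p between 0.0903 and 0.165).

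The genes called in a single line were, CPT1A apart, not shown to differ between the lines. The difference between lines was 1.25 for CREB3L3 (95% interval 0.62 to 1.88, limma adjusted p = 0.0764), -0.94 for ACSL4 (-1.40 to -0.48, limma adjusted p = 0.0739), -0.71 for EHHADH (-1.06 to -0.36, limma adjusted p = 0.0747) and -0.62 for ACSL5 (-0.94 to -0.30, limma adjusted p = 0.086). It was -0.75 for ACSL1, -1.26 for ACSM2A and -0.69 for FABP1 (limma adjusted p = 0.132, 0.185 and 0.229). These intervals are for each gene alone, before adjustment over all genes. For BDH1 it was -0.01 (-0.62 to 0.61), with differences of 0.78 in Huh7 and 0.78 in Hep-3B. In direction, 19 genes were above control in both lines, 4 below in both, 14 lower in Huh7 and higher in Hep-3B, and 2 the reverse. No gene of the set was called in both lines (0 higher and 0 lower). Only 3 genes of the set and 0.693% of all genes were called in Hep-3B, so this count says little about a difference between the lines.

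The lines also differed without knockdown. In Huh7 control cells, compared with Hep-3B control cells, 7 of the 39 genes were higher and 12 lower. These 19 genes are 48.7% of the set, against 32.7% of all genes called in this comparison, with 17.7% higher and 14.9% lower. FABP1 stood at 11.93 and 11.91 in Huh7 control arrays, against 7.28 and 7.25 in Hep-3B control arrays, a difference of 4.66 (SE 0.17, limma adjusted p = 2.55e-07) or 25.2-fold. CPT1A lay at the other end, at 5.40 and 5.40, against 8.95 and 8.83, a difference of -3.49 (SE 0.11, limma adjusted p = 9.06e-08) or 0.089 of the Hep-3B level. All 4 probe sets of CPT1A and both of FABP1 were called in these directions.

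ACSM2A was 2.54 higher in Huh7 control cells (limma adjusted p = 0.000166) and EHHADH 0.81 higher (limma adjusted p = 0.000502). BDH1 was at -1.81 (limma adjusted p = 0.000124), the peroxisomal thiolase ACAA1 at -1.01 (limma adjusted p = 5.57e-05), the medium-chain dehydrogenase ACADM at -0.88 (limma adjusted p = 7.17e-05) and ACAA2 at -0.73 (limma adjusted p = 0.000227). For ACADM these were 8.93 and 8.86 in Huh7 control arrays, against 9.78 and 9.78 in Hep-3B control arrays. In the test over all probe sets, 2 ACAA2 probe sets were called lower. The dimmest of ACAA2 was called higher, by 0.42 (limma adjusted p = 0.0144). The dimmer BDH1 probe set differed by -0.28 and was not called (limma adjusted p = 0.207). Matrix and peroxisomal enzymes went both ways: HADH, the dehydrogenase of short chains, was 0.70 higher in Huh7 control cells (limma adjusted p = 0.00118), at 8.87 and 8.94, against 8.20 and 8.21 in Hep-3B control arrays, and the peroxisomal HSD17B4 was 0.29 higher (limma adjusted p = 0.0372). This comparison uses the same control arrays as the knockdown comparisons, so the level of CPT1A in Huh7 controls enters both of its differences. With knockdown, CPT1A in Huh7 read 8.25 and 8.32, still below the 8.95 and 8.83 of Hep-3B control arrays.

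**Figure D4:**
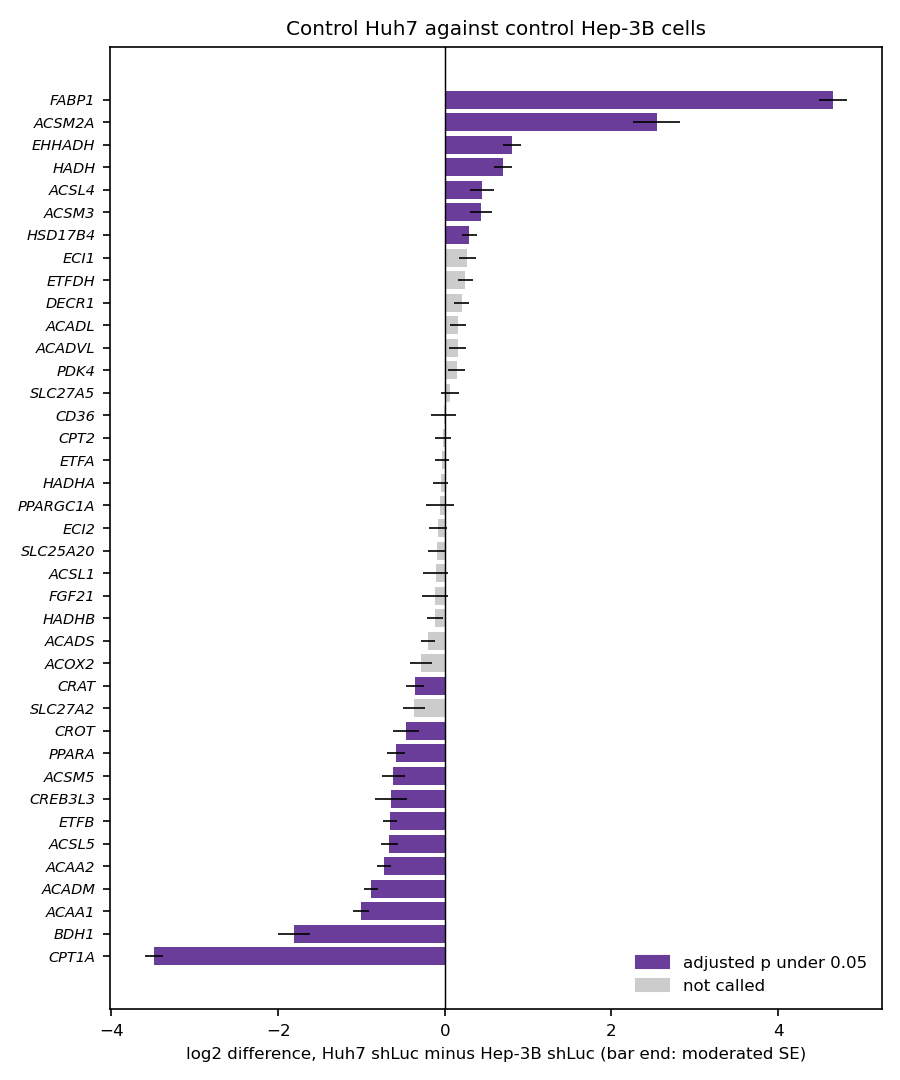
Log2 difference of each of the 39 genes between Huh7 shLuc and Hep-3B shLuc arrays, with bars for the moderated standard error and purple for an adjusted p under 0.05. FABP1 at 4.66 and CPT1A at -3.49 form the ends of the range.

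A further 42 genes of the same pathways were listed, of which 33 were measured. In Huh7 2 rose and 2 fell (12.1%, against the 13.5% of all genes), with a median of 0.06. SIRT1, a deacetylase that activates PPARGC1A, fell by 1.17 (SE 0.16, limma adjusted p = 0.00401), with arrays of 6.57 and 6.92, against 7.90 and 7.92 in controls. PPARGC1B, a relative of PPARGC1A, fell by 0.99 (SE 0.10, limma adjusted p = 0.00123), with arrays of 5.60 and 5.61, against 6.66 and 6.52 in controls. The carnitine importer SLC22A5 rose by 0.51 (limma adjusted p = 0.022), and MLYCD, which breaks down the CPT1 inhibitor malonyl-CoA, by 0.48 (limma adjusted p = 0.0396). With the mean of its probe sets SLC22A5 was at 0.25 and not called (limma adjusted p = 0.0758). MLYCD was not called with the replicate number as a block (limma adjusted p = 0.0559). In Hep-3B none of the 33 was called (0 by limma after adjustment, 12 at an unadjusted p under 0.05), and the median was 0.12. SLC22A5, at 6.72 and 6.96 in knockdown arrays against 6.30 and 6.15 in control arrays, differed by 0.62 (limma adjusted p = 0.0584). PPARGC1B differed between the lines, with -0.99 in Huh7 and 0.24 in Hep-3B (difference -1.23, limma adjusted p = 0.0096).

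Of 16 other textbook targets of PPARA, 13 were measured. In Huh7 2 rose and 3 fell (38.5%, against 13.5% of all genes), and in Hep-3B 1 rose and 0 fell (7.69%, against 0.693%). The pantetheinase gene VNN1 rose in both lines, by 1.12 in Huh7 (limma adjusted p = 0.0263), with arrays of 4.25 and 5.03, against 3.38 and 3.65 in controls, and by 1.66 in Hep-3B (limma adjusted p = 0.0396), with arrays of 7.18 and 7.81, against 5.84 and 5.82 in controls. The FGF21 coreceptor KLB rose by 0.44 in Huh7 (limma adjusted p = 0.0306). The lipase inhibitor G0S2 fell by 2.83 in Huh7 (limma adjusted p = 0.00125), TXNIP by 1.40 (limma adjusted p = 0.0461) and the lipid droplet coat protein PLIN2 by 0.69 (limma adjusted p = 0.0335). In Hep-3B these 3 genes differed by -0.21, -1.48 and -0.75 and were not called. With the mean of their probe sets TXNIP was at -1.31 and PLIN2 at -0.28 in Huh7. Neither was then called (limma adjusted p = 0.0698 and 0.117). The targets thus moved in both directions in Huh7.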

How the data were processed

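The deposited table holds log2 expression values of 54675 probe sets on 8 arrays, which the authors made with RMA; the submitters' processing notes name Expression Console 1.2, and other settings are not given in the sources used here. RMA equalises the arrays, so changes in total RNA are not visible. Array medians lay between 4.563 and 4.597. The platform annotation gave 1 symbol to 41097 probe sets, several to 1801 and none to 11777. A RefSeq table of GRCh38.p14, matched on gene identifier, changed 0 of 41043 symbols. The brightest probe set stood for a gene, with no filter on level.

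The model (limma 3.58.1, R 4.3.3) gave each of the 4 groups a mean, with 4 residual and 4.59 prior degrees of freedom, with Benjamini-Hochberg adjustment over 19775 genes. SE is the moderated standard error. The number of arrays, 2 per group, limits the precision. The steps were tested on simulated data. Promoter sequences come from RefSeq.

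Members and lists were chosen with earlier results of these data known. Genes named by rule are all members called after knockdown or between lines, the 3 furthest uncalled, the 8 widest control differences, and up to 4 per other list. Others, such as KLB, ACSL6, HADH, HSD17B4, the markers and further uncalled members, were named outside that rule. Members called after knockdown, or for a different response in the lines, at 0.58 log2 or more have the values of all 8 arrays. Alternatives covered normalization, dim genes, probe sets, variance models, array weights, separate fits, a replicate block and each array left out.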

Additional observations from a re-analysis of the deposited data

Results flagged for a closer look

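The response of 2 genes to knockdown differed between the lines in the test of the difference itself. CPT1A differed by 2.49 (limma adjusted p = 0.00155), with 2.88 in Huh7 and 0.39 in Hep-3B, and this was called under all 16 alternatives run, with values between 1.65 and 2.61. CD36 differed by -1.25 (limma adjusted p = 0.0408), with -0.51 in Huh7 and 0.74 in Hep-3B, on a dim probe set, and was called under 7 of 15 alternatives, with limma adjusted p between 0.0125 and 0.858.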

How the results depend on the processing

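Directions were stable and calls were not. For single genes, 996 of the recomputed values kept their direction and side of the threshold, 166 lost the call, 51 gained one and 14 changed sign. The set's Hep-3B count of 3 was 8 with an intensity trend and robust eBayes, 8 with array weights and 0 with Hep-3B alone; all genes gave 850, 671 and 0, and 268 among genes with a group mean of at least 5, against 137. In Huh7 all genes gave 1578 when fitted alone, against 2666. Without _s_at and _x_at probe sets the set's counts were 5 in Huh7, 1 between lines and 11 between controls, against 9, 2 and 19. Between lines, the trend setting gave 6 in the set and 560 in all, and the filter 387, against 249 in all. Leaving out 1 array gave the set 0 to 8 in Hep-3B, 3 to 9 in Huh7, 1 to 5 between lines and 12 to 21 between controls, and all genes 0 to 1135, 545 to 3032, 4 to 521 and 4502 to 7047. A lone array is then assumed to vary like the other groups.

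With the replicate number as a block the Hep-3B counts were 6 in the set and 423 in all; the Huh7 counts were 8 and 2328. Deviations of same-numbered arrays correlated at -0.0704 in Hep-3B and 0.0617 in Huh7. With so few arrays these values cannot show whether same-numbered arrays share a culture or batch, which the labels do not say.

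Signs changed only near 0 or on another probe set, and the cause was not tested. Without _s_at and _x_at probe sets BDH1 in Hep-3B was at -0.0048, CD36 at 0.16 in Huh7 and 0.12 between lines, and BDH1 at 0.20 between lines. With the mean of probe sets ACAA2 in Hep-3B was at 0.036 and BDH1 between lines at 0.10. With 1 array left out the ranges were -0.0038 to 0.20 for CREB3L3 and -0.13 to 0.046 for ACSL1 in Hep-3B, -0.039 to 0.18 for EHHADH in Huh7 and -0.33 to 0.32 for BDH1 between lines.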

Other observations

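The reverse pathway and the cycle that burns its product were measured on the same arrays. Of 15 measured fatty acid synthesis genes, 4 fell and 0 rose in Huh7: GPAM, which starts glycerolipid synthesis, by 0.64 (limma adjusted p = 0.0356), the elongases ELOVL6 by 0.47 and ELOVL5 by 0.35 (limma adjusted p = 0.0443 for each), and the regulator SREBF1 by 0.37 (limma adjusted p = 0.0469). In Hep-3B none was called (0 by limma after adjustment, 7 at an unadjusted p under 0.05), and ACSS2 and FASN differed by 0.85 and 0.76 (limma adjusted p = 0.0676 and 0.0742). The called 26.7% in Huh7 compares with 13.5% of all genes. As a whole the list was not lower in Huh7: 9 of the 15 genes lay above control and 6 below, with a median of 0.10. With Huh7 fitted alone GPAM, ELOVL6, ELOVL5 and SREBF1 were not called (limma adjusted p between 0.0817 and 0.114).

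Of 22 measured genes of the citric acid cycle and pyruvate entry, 3 rose and 3 fell in Huh7 (27.3%, against 13.5% of all genes), and 0 were called in Hep-3B by limma after adjustment, with 2 at an unadjusted p under 0.05. PC, which makes oxaloacetate from pyruvate, stood at 10.29 and 10.06 in Huh7 knockdown arrays, against 9.25 and 9.27 in Huh7 control arrays, and rose by 0.92 (limma adjusted p = 0.00189). IDH2 rose by 0.54 (limma adjusted p = 0.0199). The succinyl-CoA synthetase subunit SUCLA2 fell by 0.85 (limma adjusted p = 0.00202), and SDHD, a subunit of succinate dehydrogenase, by 0.61 (limma adjusted p = 0.00615). PDK1 in Hep-3B, at 8.43 and 7.18 in knockdown arrays against 9.09 and 9.12 in control arrays, differed by -1.30 and was not called (limma adjusted p = 0.1).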
